A study of Mus musculus with 6 samples.

Results

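miR-21a is the mouse form of miR-21, a microRNA (miRNA) cut from a single hairpin RNA that yields a 5p and a 3p product, called arms. Both arms were taken by name from the deposited count table and are 2 of its 1974 mature miRNA rows. They were measured in 6 small RNA libraries from heart cardiomyocytes, the contractile cells of the heart, of C57BL/6 mice. The groups were adult wild type (2 libraries), adult LncSync-/- knockout (2 libraries), e13.5 wild type (1 library) and e13.5 LncSync-/- knockout (1 library), where e13.5 is a stage counted in days of embryonic development. The knockout lacks a long non-coding RNA, and the labels give neither the allele nor the age of the adults, and do not say whether animals were pooled or replicates came from separate animals. The p-values below therefore rest on library-to-library spread, part or all of which may be technical.

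A mature miRNA guides an Argonaute protein to matching messenger RNAs, which are then repressed, and the bases from position 2 to 8 of the miRNA, the seed, contribute most to the choice of target. The 5p arm of miR-21 is the one usually retained as the guide, and the 3p arm is mostly discarded. Known targets of miR-21-5p include Pdcd4 and the Sprouty genes, which restrain growth signalling. In the heart miR-21 is best known for its abundance in fibroblasts and its rise in stressed or failing myocardium.

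The arms and their nearest annotated relatives are printed 5′ to 3′ from RefSeq on GRCm38.p6 (mm10), with the seed in capitals, because the counts of miR-21a-5p could be shared with copies that resemble it.
miR-21a-5p: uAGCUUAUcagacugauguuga
miR-21a-3p: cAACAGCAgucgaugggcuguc
miR-21b: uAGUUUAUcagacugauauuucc
miR-21c: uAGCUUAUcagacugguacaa
Within the RefSeq table of 1679 mature miRNAs, which is not complete, miR-21c had the seed of miR-21a-5p. Counted from 1 at the 5′ end, miR-21b departed from miR-21a-5p by C4U, which lies in the seed, and by G18A, G21U and A22C. miR-21c matched it over the first 15 bases and departed by A16G, G18A, U19C, U20A and G21A.

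The hairpin gene Mir21a lies on the minus strand of chromosome 11 (GRCm38, 86584067 to 86584158) and is 92 bases long. miR-21a-5p occupies bases 18 to 39 of the hairpin and miR-21a-3p bases 56 to 77. In GENCODE it sits inside exon 12 of Vmp1-201, in the untranslated stretch after the stop codon (86583865 to 86585310). Vmp1 encodes a membrane protein of autophagy, and 1 of its 8 annotated transcripts covers the hairpin. No other of the 1005 hairpins in the RefSeq table contained either arm.

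Reads of the relatives were scarce. miR-21b had 5 and 7 counts in the adult wild-type libraries, 0 and 6 in the adult knockouts and 0 in both e13.5 libraries. miR-21c had 1 count in each adult wild-type library and 0 elsewhere. miR-590-5p, a miRNA known to share the miR-21 seed, was at 0 in all 6 libraries, and miR-590-3p had 11 counts in adult wild-type replicate 1, 44 in adult knockout replicate 1 and 0 in the others. Over the adult libraries these totals compare with 493401 counts of miR-21a-5p.

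Mature counts per library ranged from 14347091 to 17933518 in adults and were 8944552 and 2671957 at e13.5 (wild type and knockout). A count of 0 allows up to 3 counts, or from 0.167 to 0.209 CPM (counts scaled to a library total of 1000000) in adults and 0.335 and 1.12 CPM at e13.5. All 6 listed cardiomyocyte miRNAs had counts in every library, and they summed to 279604 to 394230 CPM in adults and to 146027 and 98548 CPM at e13.5. Intervals cover counting error only.

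miR-21a-5p was among the most abundant miRNAs of the e13.5 libraries and held lower ranks in adults. It had 149882 counts in adult wild-type replicate 1 and 92334 in replicate 2, which is 0.836% (Wilson 95% interval 0.832 to 0.840) and 0.550% (0.546 to 0.553) of mature counts. The adult knockouts had 59014 counts in replicate 1 and 192171 in replicate 2, or 0.411% (0.408 to 0.415) and 1.09% (1.087 to 1.096). The e13.5 wild-type library had 1355331 counts, 15.15% of its total (15.13 to 15.18), and the e13.5 knockout library 507514, 18.99% (18.95 to 19.04). Both e13.5 libraries stood far above all 4 adult ones, and the adult genotypes overlapped, with the knockout replicates at the bottom and the top of the adult range. Of the 679 miRNAs tested between stages, 44.2% likewise had both e13.5 libraries above all adult ones on library totals.

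By rank, miR-21a-5p was the second most abundant miRNA of both e13.5 libraries, after miR-143-3p, which is typical of smooth muscle, and before the muscle miRNA miR-1a-3p. In adults it ranked 23 of 897 and 27 of 768 miRNAs with a count in the wild-type libraries, and 37 of 618 and 18 of 825 in the knockouts. Averaged over the adult libraries its nearest neighbours were miR-22-3p above (7872 CPM, from 4505 to 10745) and miR-26b-5p below (7087 CPM, from 6654 to 7582), against 7221 CPM (from 4113 to 10914) for miR-21a-5p. These 3 did not differ beyond their spread over the adult libraries. At e13.5 the next miRNA after miR-1a-3p was at 38520 CPM (miR-148a-3p) in the wild-type and 43465 CPM (let-7i-5p) in the knockout library, against 151526 and 189941 CPM for miR-21a-5p.

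**Figure D1:**
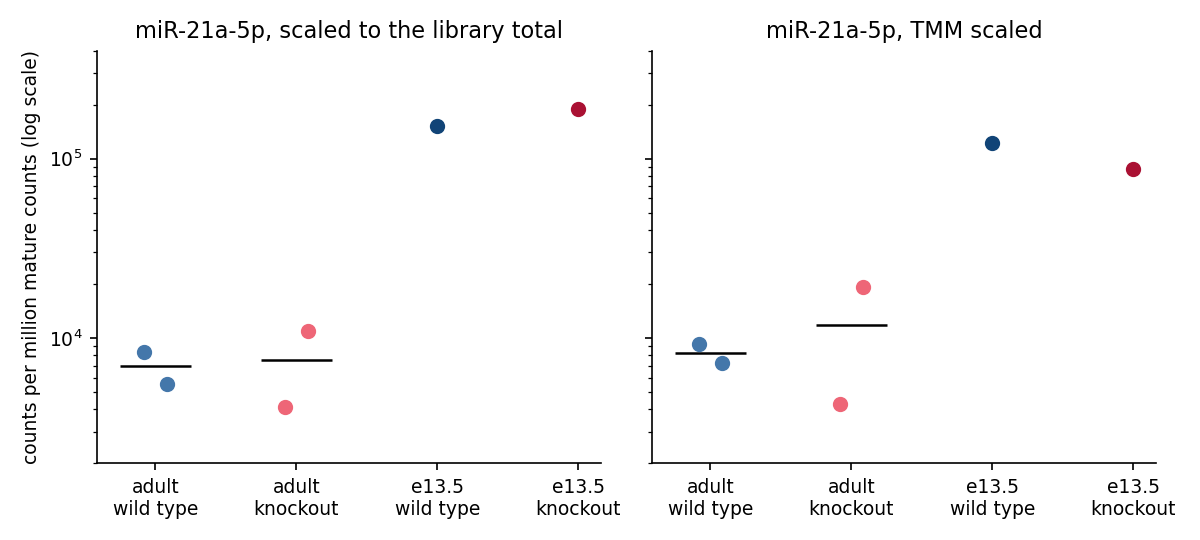
Level of miR-21a-5p in each library in CPM (log axis), scaled to the library total (left) or by TMM (right), by stage and genotype, with a bar at the mean of 2 adult replicates. Under both scalings the e13.5 points lie above all adult points, while the order of the e13.5 genotypes changes.

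The stage comparison asked how e13.5 and adult cardiomyocytes differ, with genotype in the model. miR-21a-5p rose 10.7-fold toward the embryonic libraries (log2 3.42 with an SE of 0.59, edgeR quasi-likelihood test with Benjamini-Hochberg adjustment over 679 miRNAs, adjusted p = 0.00141), and it was higher in 2 of 2 e13.5 libraries than in all 4 adult libraries. After TMM, which adjusts each library by a trimmed mean of its miRNA ratios to a reference library, it had 9264 and 7278 CPM in adult wild types and 4278 and 19234 in adult knockouts, against 122054 and 87712 at e13.5. The nearest pair of libraries across stages, adult knockout replicate 2 and the e13.5 knockout, was 4.56-fold apart. On this scale 37.1% of the 679 tested miRNAs likewise had both e13.5 libraries above all 4 adult ones. Calls were common in this contrast, at 57.7% of the tested miRNAs, with 29.3% higher and 28.4% lower at e13.5, and 154 miRNAs had a larger log2 fold. In a bulk library fewer cells of a type and less RNA per cell cannot be told apart.

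The size of the stage fold depended on scaling. With library totals the log2 fold was 4.56, or 23.5-fold, and it was 4.21, or 18.5-fold, when scaled by the median of ratios. The median log2 fold of all tested miRNAs moved with it, from −0.06 with TMM to 0.93 with library totals and 0.72 with the median of ratios. In excess of that median, the log2 fold of miR-21a-5p came to 3.48, 3.63 and 3.49. Without adult knockout replicate 2 the TMM-scaled log2 fold was 4.55 in place of 3.42. The share of stage calls on the higher side was 50.8% with TMM, 68.7% with library totals and 64.4% with the median of ratios.

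The miRNAs next to it in rank at e13.5 had smaller log2 folds between stages. miR-148a-3p (log2 fold 2.02, SE 0.62) and let-7i-5p (1.17, SE 0.40) were called higher at e13.5. miR-143-3p (0.60, SE 0.55) and miR-1a-3p (−1.54, SE 0.75) did not pass. miR-30d-5p (−1.51, SE 0.44), at rank 5 in the e13.5 knockout library, was called lower. These miRNAs are named for their abundance at e13.5, where a high level favours a positive fold.

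**Figure D2:**
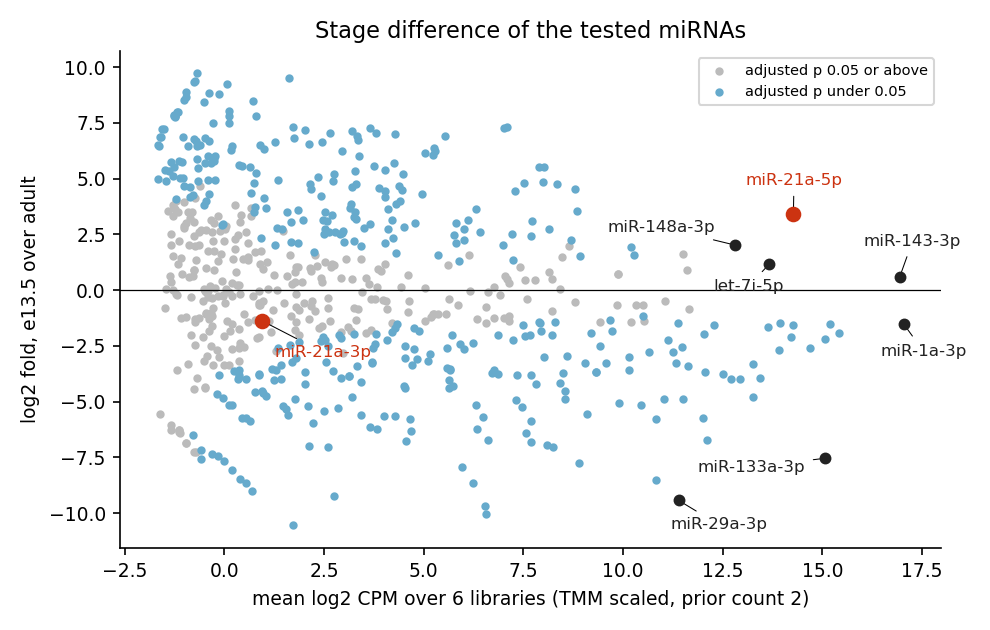
Log2 fold between e13.5 and adult libraries (vertical axis) against mean log2 CPM (horizontal axis) for the 679 tested miRNAs, blue where the adjusted p was under 0.05, with 6 abundant miRNAs named in black. miR-21a-5p, in red at a log2 fold of 3.42, lies above the 6 named ones, and miR-21a-3p, in red at −1.39, lies among the rare ones.

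Ratios within a library need no scaling, and they show only that 2 quantities changed unequally. Relative to the geometric mean of 8 let-7 5p arms, a family that restrains growth and accumulates in differentiated cells, miR-21a-5p stood at a log2 ratio of 1.06 and 0.76 in adult wild types, −0.69 and 2.60 in adult knockouts, and 5.81 and 5.25 in the e13.5 wild-type and knockout libraries. Relative to 6 fibroblast and smooth muscle miRNAs the values were 2.64 and 2.47, 1.98 and 3.56, and 6.23 and 7.04 in the same order. Relative to 6 cardiomyocyte miRNAs they were 1.71 and 0.85, 0.93 and 1.69, and 7.11 and 8.55. Against each of the 3 lists the e13.5 libraries lay above every adult library, by 4.60, 3.97 and 6.54 log2 units on average. A fall of the list members widens such a gap. The median TMM-scaled stage log2 folds of the lists were −1.61, −0.32 and −2.29 in the same order. On library totals the let-7 sum overlapped between stages, at 39333 to 85235 CPM in adults and 56667 and 84795 at e13.5. Of the e13.5 sums let-7i-5p held 31009 and 43465 CPM. How many other miRNAs would lie above every adult library against these lists was not counted. The adult knockouts were furthest apart against let-7 and closest against the cardiomyocyte list.

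**Figure D3:**
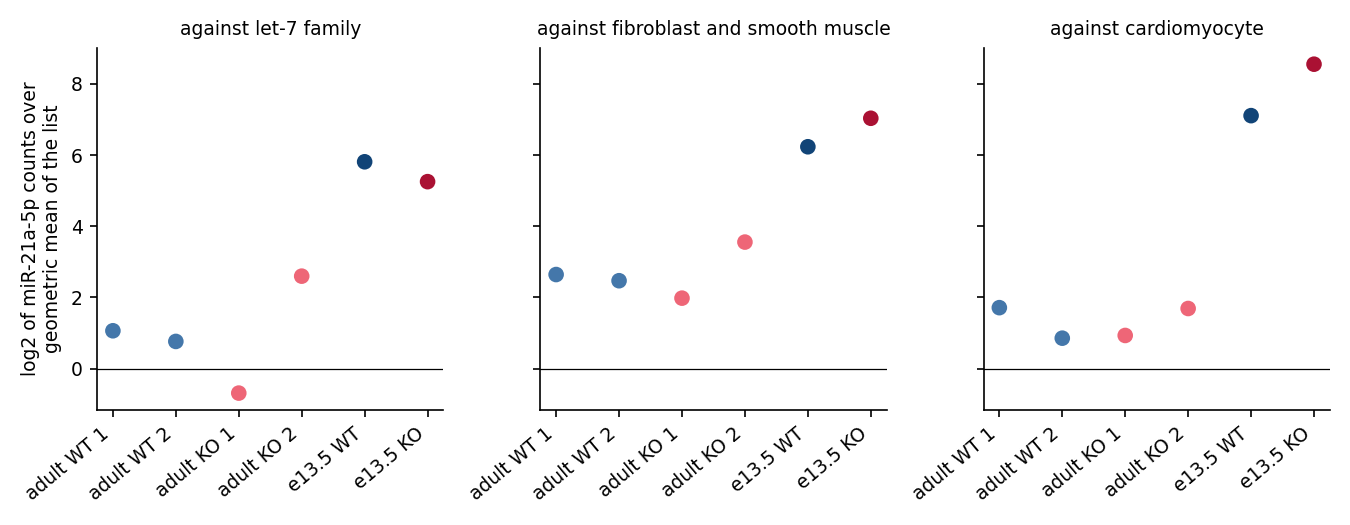
Log2 of miR-21a-5p counts over the geometric mean count of the let-7, fibroblast and smooth muscle, and cardiomyocyte lists, in each of the 6 libraries. The e13.5 points, from 5.25 to 8.55, are above every adult point, which run from −0.69 to 3.56.

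miRNAs of other cell types also differed between stages, to be read against the 28.4% of all tested miRNAs called lower and the 29.3% called higher. Folds and calls here are TMM scaled, whereas sums and CPM values are on library totals. Summed CPM of the 6 fibroblast and smooth muscle miRNAs ran from 73924 to 117012 in adults and was 355563 and 214613 at e13.5, of which miR-143-3p alone held 349750 and 210707. In the stage fit 1 of these 6 was higher (miR-199b-5p), 1 lower (miR-145a-5p, log2 fold −3.26) and 4 did not pass. The 6 leukocyte miRNAs summed to between 1764 and 2791 CPM in adults and to 127 and 178 at e13.5, with 4 called lower, among them miR-146a-5p and miR-150-5p (−4.90 and −6.42), and 2 not passing. The 5 epithelial miRNAs summed to between 24.3 and 54.4 CPM in adults and to 1427 and 1997 at e13.5, with 4 called higher, among them miR-200b-3p and miR-200a-3p (6.25 and 4.46). Both arms of the endothelial miRNA miR-126a were called lower (−1.55 for 3p and −2.24 for 5p), and their sum was 16487 to 31068 CPM in adults and 18992 and 16342 at e13.5. On library totals miR-126a-3p overlapped between stages, at 14596 to 26481 CPM in adults and 17229 and 15358 at e13.5. miR-126a-5p did not overlap, at 1891 to 4587 CPM in adults and 1763 and 984 at e13.5. Of 4 erythroid miRNAs 2 were higher, among them miR-451a (2.76), and 1 lower, miR-486a-5p (−3.75), with sums of 5557 to 21814 CPM in adults and 737 and 14236 at e13.5. The adult sums were mostly miR-486a-5p, at 5509 to 21396 CPM, which was at 328 and 6622 at e13.5. By contrast miR-451a was at 45.1 to 402 CPM in adults and 378 and 7547 at e13.5. Among these lists only miR-429-3p, an epithelial miRNA, was at 0 in any library (adult knockout replicate 1). The part of these cell types in the stage difference of miR-21a-5p was not tested.

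Most miRNAs listed with miR-21a for cardiac stress and fibrosis were lower at e13.5, where miR-21a-5p was higher. Of 42 tested arms of that list other than miR-21a, 33 were lower at e13.5 (28.4% of all tested miRNAs were), 3 were higher (29.3% of all) and 6 did not pass, with a median log2 fold of −3.87 against −0.06 over all tested miRNAs. Its 2 most abundant arms, miR-24-3p and miR-30c-5p, were lower by log2 folds of −4.80 and −3.95. miR-29a-3p, which represses collagen genes, was at −9.43, and miR-221-3p and miR-34a-5p were at −6.93 and −6.83. The 3 higher arms were miR-208b-3p (4.59), from an intron of the fetal myosin gene Myh7, miR-125b-1-3p (2.95) and miR-199b-5p (2.25). The more abundant miR-125b-5p was among the lower arms. miR-199a-5p and miR-214-5p did not pass, at 0.71 and 0.70. Nor did miR-199a-3p and miR-214-3p, the opposite arms, whose log2 folds were negative. Of the other arms that did not pass, miR-27a-5p had a positive fold and miR-212-5p a negative one. Against the same shares, of the 8 let-7 5p arms 5 were lower, among them let-7f-5p (−2.11), 2 were higher and 1 did not pass. Folds and calls in this paragraph are TMM scaled, and the let-7 sum on library totals overlapped between stages. Of the 6 cardiomyocyte miRNAs 4 were lower, among them miR-133a-3p (−7.54), 1 was higher and 1 did not pass.

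In adults the comparison of genotypes gave no call for miR-21a-5p. The wild-type libraries averaged 6928 ± 2022 CPM (SD, n = 2). The knockouts averaged 7513 ± 4808 CPM (SD, n = 2), and their range enclosed that of the wild types. The TMM-scaled log2 fold of knockout over wild type was 0.57 (SE 0.68, edgeR adjusted p = 0.999), in a comparison where 0.735% of 544 miRNAs were called. With library totals, the scale of the means above, the log2 fold was 0.12 (SE 0.58). The knockout replicates decided its sign. Without knockout replicate 1 the log2 fold was 1.27 (edgeR adjusted p = 0.00217) and without knockout replicate 2 it was −0.96 (edgeR adjusted p = 0.056). In both of these fits the knockout arm held 1 library, which was assumed to vary like the wild types, with 1 residual degree of freedom. Adjusted p over all alternatives ran from 0.00217 to 1. The knockout replicates were 2.65-fold apart on library totals and 4.50-fold after TMM scaling, against 1.52-fold and 1.27-fold for the wild types.

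Other miRNAs also separated the adult knockout replicates. The next values are on library totals, not TMM scaled. Over 136 adult miRNAs with a mean of at least 100 CPM, the median absolute log2 difference between the knockout replicates was 0.862. Of these, 32 miRNAs differed by more than the 1.41 of miR-21a-5p. Between the wild types the median was 0.339, and 33 exceeded the 0.60 of miR-21a-5p. Knockout replicate 1, with the lowest miR-21a-5p, had the highest erythroid sum (21814 CPM, led by miR-486a-5p, with miR-451a at 402 CPM) and the highest let-7 sum (85235 CPM). Knockout replicate 2, with the highest miR-21a-5p, had the lowest of both, at 5557 CPM (miR-451a 45.1 CPM) and 39333 CPM. Its cardiomyocyte sum was the highest of the adults, at 394230 CPM against the lowest, 279604, in replicate 1. The endothelial sum likewise was lowest in replicate 1, at 16487 CPM, and highest in replicate 2, at 31068 CPM. The leukocyte sum was highest in replicate 1 (2791 CPM) and lowest in replicate 2 (1764 CPM). The fibroblast and smooth muscle sums of the knockouts, 86138 and 98471 CPM, lay within the wild-type range of 73924 to 117012. Their epithelial sums, 42.3 and 24.3 CPM, were both below the wild types (47.8 and 54.4). The part of these in the spread of miR-21a-5p was not tested. No member of any of the 8 lists passed in adults (edgeR), with median log2 folds of 0.02 for cardiac stress and fibrosis, 0.38 for let-7, 0.39 for cardiomyocyte, 0.02 for fibroblast and smooth muscle, 0.58 for leukocyte, 0.77 for erythroid, 0.38 for endothelial and −1.09 for epithelial miRNAs, against 0.08 over all tested.

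At e13.5, with 1 library per genotype, the order of the genotypes followed the scaling. miR-21a-5p in the knockout library was 1.25 times the wild-type level on library totals (95% counting interval 1.249 to 1.258), but 0.719 times after TMM scaling (0.716 to 0.721) and 0.793 times with the median of ratios (0.790 to 0.795). The TMM factors of these libraries were far apart, at 1.24 for wild type and 2.17 for knockout. These values have no replicate check, and the counting intervals leave out any error of the scaling. Over both stages the log2 fold of knockout over wild type was 0.18 (SE 0.56, edgeR adjusted p = 0.989, from 0.36 to 1 over the alternatives), where 0.736% of 679 miRNAs were called. Without adult knockout replicate 2 it was −0.88. The genotype by stage interaction, the knockout difference at e13.5 minus that in adults, was −0.996 on the log2 scale (SE 1.14, edgeR adjusted p = 0.939). No miRNA of 769 was called by edgeR (0%), 46 had an unadjusted p under 0.05, and DESeq2 called 4 and limma 0. The sign of the interaction changed with library totals (0.21) and without adult knockout replicate 2 (0.52), and without adult knockout replicate 1 it was −1.72 (edgeR adjusted p = 0.00903, range over the alternatives 0.00903 to 1). In those 2 fits without a knockout replicate only the adult wild types gave the spread, with 1 residual degree of freedom.

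miR-21a-3p was rare in every library. It had 34 and 32 counts in the adult wild types, 35 and 25 in the adult knockouts, 9 in the e13.5 wild-type and 6 in the e13.5 knockout library. These are 1.90 CPM (Wilson 95% interval 1.36 to 2.65), 1.91 (1.35 to 2.69), 2.44 (1.75 to 3.39), 1.42 (0.962 to 2.10), 1.01 (0.529 to 1.91) and 2.25 (1.03 to 4.90), in that order. On library totals the stages overlapped, whereas after TMM scaling both e13.5 values (0.810 and 1.04 CPM) lay below the 4 adult ones (2.10 to 2.54 CPM), as for 37.3% of the tested miRNAs. The stage log2 fold was −1.39 (SE 0.86, edgeR adjusted p = 0.191), and with library totals it was −0.33. The adult genotype log2 fold was 0.19 (SE 0.75, edgeR adjusted p = 0.999), that over both stages 0.19 (SE 0.75, edgeR adjusted p = 0.989) and the interaction 0.24 (SE 1.87, edgeR adjusted p = 0.9998). At e13.5 the TMM-scaled knockout to wild-type ratio was 1.28, and its 95% counting interval (0.375 to 4.02) spanned both directions. With 1 library per genotype a difference could not be tested at any depth.

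The ratio of the arms in the e13.5 libraries did not overlap that in the adults. For each 3p count there were 4408 5p counts (exact 95% interval 3155 to 6366) and 2885 (2044 to 4219) in the adult wild types, and 1686 (1212 to 2421) and 7687 (5207 to 11878) in the adult knockouts. At e13.5 there were 150592 (79329 to 329334) in the wild-type and 84586 (38862 to 230491) in the knockout library. Both e13.5 ratios were above all adult ratios, and the intervals of the e13.5 libraries did not reach those of the adults. The mean log2 ratio was 16.78 ± 0.59 (SD, n = 2) at e13.5 and 11.81 ± 0.93 (SD, n = 4) in adults, a difference of 4.98 or 31.5-fold. An exact two-sided permutation test, with the smaller tail doubled, gave p = 0.133, the smallest that this rule allows for 2 against 4 libraries. The adult genotypes differed by 0.01 log2 units (exact two-sided permutation test p = 1, smallest possible 0.333), with the knockout ratios on either side of the wild types.

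**Figure D4:**
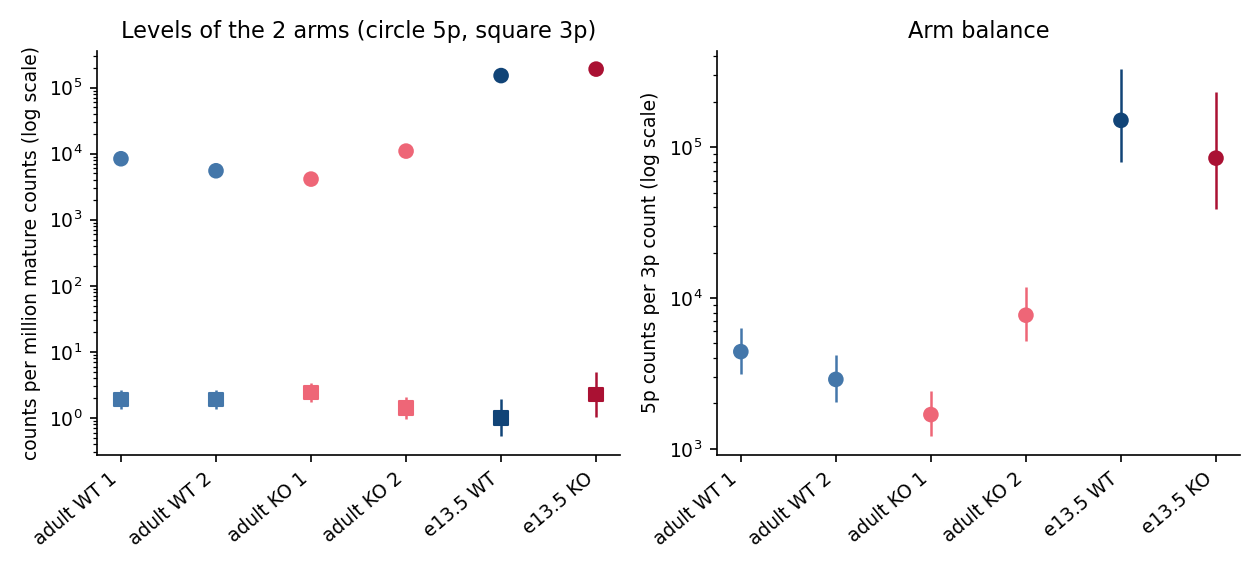
Left, CPM of miR-21a-5p (circles) and miR-21a-3p (squares, with Wilson 95% intervals) in each library on a log axis. Right, 5p counts per 3p count with exact 95% intervals, which run from 1686 to 7687 in adults and are 150592 and 84586 at e13.5.

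A shift of arm balance with stage was not rare. Of 185 hairpins with both arms tested, 112 had e13.5 and adult ratios that did not overlap (60.5%), 68 of them toward the 5p arm (36.8%) and 44 toward the 3p arm. With 0.5 added to each count the shift of miR-21a was 4.90 log2 units, against a median of 0.98, and its rank among shifts toward 5p was 19. Among these 185 hairpins miR-21a stood out in the level of the ratio. Its mean log2 ratio of 5p to 3p ranked 1 of the 185 at e13.5 and 4 in adults, and none of them was more one-sided toward either arm at e13.5. Hairpins with an arm too rare to be tested, or with arms under different copy names, were left out. A ratio can be this high only where 1 arm is abundant, as miR-21a-5p was at e13.5 (1355331 and 507514 counts). The median absolute log2 ratio over these hairpins was 3.36 in adults and 3.93 at e13.5.

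**Figure D5:**
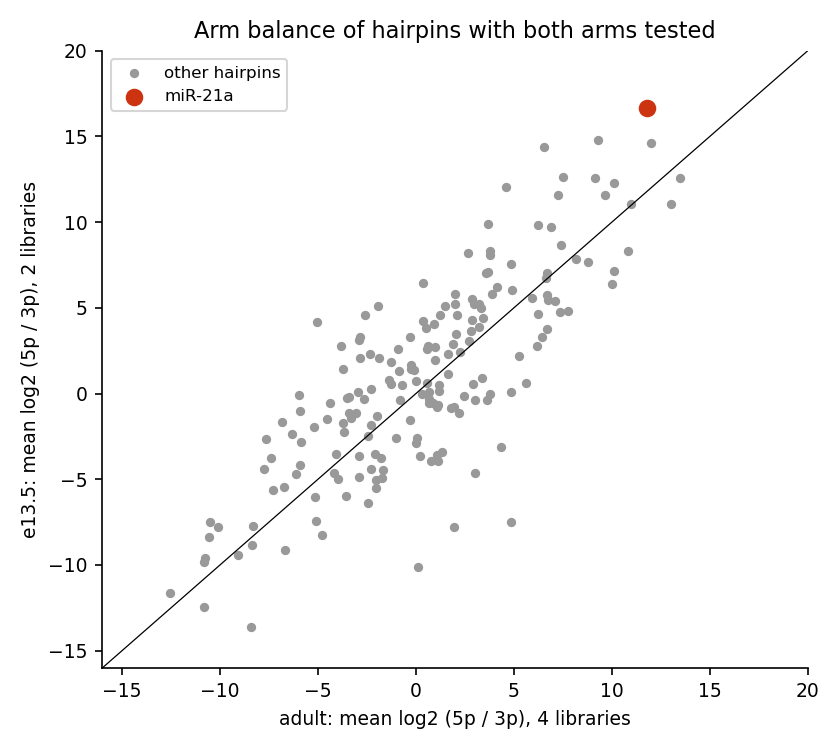
Mean log2 ratio of 5p to 3p counts (0.5 added) in 2 e13.5 libraries against that in 4 adult libraries for 185 hairpins, with the line of equality. miR-21a, in red, has the highest e13.5 ratio and lies 4.90 above the line.

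By pattern over the 6 libraries, the miRNAs most like miR-21a-5p among 161 others with a mean of at least 100 TMM-scaled CPM were miR-146b-5p (Pearson r of log2 CPM 0.991, n = 6), miR-542-3p (0.980), miR-20a-5p (0.978), miR-136-3p (0.977) and miR-411-5p (0.977). The median r over the 161 was −0.75. Their choice by correlation fixes that they share its pattern, and miR-542-3p, miR-136-3p and miR-411-5p reached that mean through the e13.5 libraries. Their levels differed widely. miR-146b-5p went from between 71.8 and 157 CPM in adults to 291 and 288 at e13.5, while miR-411-5p, from the imprinted Dlk1-Dio3 cluster, went from between 28.7 and 92.1 to 2667 and 1120. In the 4 adult libraries alone the closest were miR-126a-5p (r = 0.999, n = 4), let-7a-1-3p (0.998), miR-30b-5p (0.998), miR-30d-5p (0.997) and miR-26a-5p (0.994), with a median of 0.28 over the 161. None of these 5 was among the closest over all 6 libraries, and miR-30b-5p went from between 1969 and 5419 CPM in adults to 229 and 30.9 at e13.5. All these correlations share the library depths and scaling factors. For miR-21a-3p the closest over the 6 libraries were miR-149-5p, miR-150-5p, miR-29c-3p, miR-378c and miR-191-5p, at r from 0.978 to 0.987 over 162 miRNAs whose median was 0.83.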

How the data were processed

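The authors deposited 1 table of raw read counts for 3208 features in 6 libraries, not normalised and with 1 column per library, of which 1974 are mature miRNAs and 1234 hairpins. Per the submitters' processing notes the genome was mm10. RNA was extracted with TRIZOL and libraries were made with a NEXTFLEX small RNA kit, per the labels' protocols. The aligner and counter, and how reads matching more than 1 miRNA were treated, were not given in the sources used here. Adapter ligation favours some sequences, so levels of different miRNAs compare reads, not molecules. No columns belonged to other samples (0).

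Mature rows that agreed within 1% of their total (at least 20 counts, in at least 3 libraries) were taken as the same reads, which left 1952. Tests used edgeR 4.0.16 in R 4.3.3 (TMM, filterByExpr with a minimum count of 10, glmQLFit and glmQLFTest, two-sided, adjusted p under 0.05), with the 4 adult libraries for genotype in adults, all 6 in an additive model for stage and genotype, and 4 group means for the interaction, which takes each single e13.5 library to have the spread of adult replicates. Residual degrees of freedom were 2, 3 and 2. CPM use the mature total, and TMM-scaled CPM use the factors of the 6-library additive fit. DESeq2 1.42.0 and limma 3.58.1 (voom) were alternatives, and the code was tested on simulated data. The arm ratio was compared by an exact permutation test over libraries, with the smaller tail doubled for a two-sided p.

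The members and lists were chosen with earlier results of these data known. Named miRNAs were both arms, the relatives miR-21b, miR-21c and miR-590, the 5 best correlated miRNAs, rank neighbours, the 2 most abundant members of each list and members called in adults. Other list members named in the text, such as the largest folds and the exceptions in direction, were chosen after their values were seen.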

Additional observations from a re-analysis of the deposited data

How the results depend on the processing

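The stage fold of miR-21a-5p kept its direction and its call under all 16 alternatives, with log2 folds from 2.92 to 4.56, and was 3.89 in wild-type and 3.38 in knockout libraries alone. That of miR-21a-3p stayed negative and uncalled in all 15, from −1.50 to −0.33. The share of miR-21a-5p was 23.6 times higher at e13.5, and 18.95 times when the 10 most abundant other miRNAs were left out of the total. Leaving out 1 library moved the arm balance between stages only from 4.56 to 5.39 log2 units.

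Genotype results of miR-21a-5p did not hold a direction. Leaving out 1 library gave log2 folds from −0.96 to 1.27 in adults (negative without adult knockout replicate 2), from −0.88 to 0.57 over both stages (negative also without adult wild-type replicate 2, at −0.02) and from −1.72 to 0.52 for the interaction. The adult arm balance ran from −1.08 to 1.11, negative without adult wild-type replicate 2 or adult knockout replicate 2. With limma the log2 fold over both stages was −0.070, and with library totals the interaction was 0.21. At e13.5 the log2 fold of −0.48 with TMM became 0.33 with library totals, −0.33 with median-of-ratios factors, −0.32 with upper-quartile factors and 0.39 against the total without miR-21a-5p. The cause of these changes was not tested. All genotype folds of miR-21a-3p stayed positive and uncalled.

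Counts of called miRNAs moved as follows. In adults the 4 calls became 9 with no filter and 0 with limma (12 at an unadjusted p under 0.05), and ran from 5 to 47 when 1 library was left out (35 without adult knockout replicate 1, 47 without replicate 2). Between stages 392 became 231 in the knockout libraries alone and ran from 261 (without the e13.5 knockout) to 381. Over both stages 5 became as few as 3 without either adult wild-type library, with 5 as the highest. For the interaction 0 became 1 with library totals, 2 with no filter and 4 with DESeq2, and ran from 0 to 87 (without adult knockout replicate 1, and 40 without replicate 2).

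The adult replicate numbers are shared between genotypes, but differences between replicates 1 and 2 were not correlated between genotypes (r = 0.0091 over 544 miRNAs). With the replicate block the adult log2 folds were 0.21 for miR-21a-5p and 0.19 for miR-21a-3p, and 5 miRNAs were called. Depth limits miR-21a-3p above all, with 6 counts in the shallowest library.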

Other observations

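The hairpin row of miR-21a held reads beyond the sum of its arms in most libraries. Where these reads lay on the hairpin cannot be told, because the counting rule was not given. The excess was 4 and 2 reads in the adult wild types, 0 and 1 in the adult knockouts, 67 in the e13.5 wild-type and 58 in the e13.5 knockout library. As a share of hairpin counts they were at most 0.00267% in adults and 0.00494% and 0.0114% at e13.5. In both e13.5 libraries these reads outnumbered those of miR-21a-3p (9 and 6), whereas in all 4 adult libraries they were fewer.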
